A study of Mus musculus with 18 samples.

Results

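The nuclear genes for subunits of the mitochondrial respiratory chain and the ATP synthase were followed in mouse kidney across 6 treatment groups. They were chosen by symbol alone, as the rows of the deposited table whose names begin with the Nduf subunit series a, b, c, s or v, with Uqcr, with Cox4 to Cox8 or with Atp5, or are Sdha, Sdhb, Sdhc or Sdhd. The rule took 87 of 19545 rows, and no measured value entered it. Complex I held 38 of them, complex II 4, complex III 8, complex IV 20 (with Ndufa4 and its relative Ndufa4l2 counted there) and complex V 17. A filter of at least 1 FPKM in at least 3 samples kept 84 members for testing. FPKM counts sequenced fragments per transcript length and library size. The other 3 members, Ndufa11b, Cox7b2 and Cox8c, were at or near 0 everywhere and were not tested.

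The 18 kidney samples came from ICR mice of 10 weeks, 3 for each of 6 groups. For control the labels name no treatment. The AOS group was given 10 mg/kg of AOS, whose full name the labels leave out. HS stands for high fat diet with STZ (streptozotocin, a toxin of pancreatic beta cells), and HS_AOS for that treatment together with 10 mg/kg of AOS. In HS_AOS_FMT and HS_control_FMT the HS treatment was joined by FMT, a transfer of gut microbes, with 10 mg/kg of AOS named for the first and control for the second. The series asks what such transfers do to the damaged kidney. Nothing in the labels tells whether a group's 3 samples were separate mice, so the p-values reflect the spread among these samples alone, which may be technical. In bulk kidney, fewer cells of a type and less RNA per cell cannot be told apart.

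Complexes I and II pass electrons from NADH and succinate to ubiquinone, complex III passes them on to cytochrome c and complex IV to oxygen, and complex V makes ATP from the proton gradient that complexes I, III and IV build. Most subunits are encoded in the nucleus, a few core subunits of complexes I, III, IV and V are encoded in mitochondrial DNA, and complex II is wholly nuclear. The kidney tubule, above all its proximal part, is rich in mitochondria because salt and solute transport use much ATP. The mitochondrially encoded subunits were not analysed here.

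The libraries were not alike in ways that touch these genes. Low values stepped in units that would put them at 8.89 to 12.6 M reads, if 1 step is 1 read, but whole reads could not be recovered. A library's deviations from each gene's mean were ranked against transcript length and GC content over 12265 genes. The Spearman correlation with length ran from -0.305 in HS 3 to 0.37 in HS_AOS_FMT 2, and that with GC content from 0.349 in HS 2 to -0.61 in HS_AOS 3. The 14 adrenal markers summed to 997 FPKM in control 3, to 684 in HS 3 and to 459 in HS_AOS_FMT 2, called the 3 adrenal-rich libraries here. The sum was 79.4 in HS_AOS_FMT 3 and at most 10.7 in every other library. Kap, 1 of 18 proximal tubule markers, was at 15798 FPKM in control 3 and between 66020 and 155154 in the other 17 libraries. Of the other markers, Fbp1, Slc5a12, Slc5a2, Aqp1 and Cubn were highest in control 3 among the control libraries. All the rest of that list were lowest there. Control 3 thus stood apart from its own group, with proximal tubule markers differing in both directions.

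Nuclear respiratory factor 1 (NRF-1) is a transcription factor known for acting on promoters of respiratory chain genes. RefSeq promoter windows of build GRCm38.p6 were matched by symbol for 67 of the 87 members. The full NRF-1 motif was searched as GCGCATGC overlapped by its reverse complement GCATGCGC 2 bases further on, which reads the same on both strands. It lay within 250 bases upstream of the start of 4 members (5.97%), against 0.877% of 27025 genes. Those 4 promoters are shown because they hold the full motif, in capitals, with 15 bases on each side, 5′ to 3′ in the direction of the gene. Atp5k is at chr5:108434425-108434464 (minus strand), Cox6a1 at chr5:115349096-115349135 (minus), Atp5g2 at chr15:102671065-102671104 (minus) and Ndufa11 at chr17:56717687-56717726 (plus).
Atp5k: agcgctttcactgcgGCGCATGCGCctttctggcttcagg
Cox6a1: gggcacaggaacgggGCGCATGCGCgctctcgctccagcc
Atp5g2: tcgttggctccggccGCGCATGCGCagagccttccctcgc
Ndufa11: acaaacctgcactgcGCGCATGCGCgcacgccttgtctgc
The parts GCATGCGC (or its reverse complement) and CGCATGCG, which overlap the full motif, were on either strand in 11.9% and 10.4% of matched members, against 2.56% and 1.75% of all genes. The core CGGAAG of ETS factors such as NRF-2, on either strand, was in 31.3% of members and 15.3% of all genes, its longer form ACTTCCGG in 4.48% and 3.23%, and the Sp1 core GGGCGG in 34.3% and 35.4%. A match is a string of letters and was not tested as a binding site. In HS_AOS against HS the changes of Atp5k, Cox6a1, Atp5g2 and Ndufa11 were -0.84, -0.28, -0.18 and -0.50 on the log2 scale, and none of them passed after adjustment over all genes.

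The members were among the abundant transcripts of the kidney, with 73 of the 84 at 100 FPKM or more on average over the 18 libraries. The median member level per length was 233 FPKM in complex I, 286 in complex II, 475 in complex III, 515 in complex IV and 695 in complex V. The highest members were Atp5b, the catalytic beta subunit of the ATP synthase (2179 FPKM), Cox8a (2040), Ndufa4 (1841) and Cox6a1 (1810). In the other complexes the highest were Ndufb4 (883) in complex I, Sdhb (450) in complex II and Uqcrb (1029) in complex III. Ndufb4c has a transcript of 390 bases that is 100% identical to a stretch of the 971 bases of Ndufb4. Reads from that stretch cannot be told apart, which leaves the Ndufb4c level uncertain and touches part of the Ndufb4 transcript. The lowest tested members were Ndufb4b (2.76) in complex I, Sdhd (184) in complex II, Uqcrq (192) in complex III, Cox6a2 (1.51) in complex IV and Atp5s (10.1), a coupling factor, in complex V.

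Where a subunit has tissue isoforms, the ubiquitous form had the higher level in each set. Cox4i1 lay between 886 and 1352 FPKM, and Cox4i2, the lung form, between 0.48 and 2.92. Cox6a1 lay between 1300.4 and 2319 FPKM, and its heart and muscle form Cox6a2 between 0.14 and 3.42. Cox6b1 lay between 1064 and 1606 FPKM, and the testis form Cox6b2 between 2.10 and 28.6. For subunit 7a the liver form Cox7a2 lay between 342 and 552 FPKM, the heart and muscle form Cox7a1 between 38.8 and 128, and Cox7a2l, a factor of supercomplex assembly, between 78.3 and 113. Cox7b lay between 257 and 397 FPKM, while its testis form Cox7b2 was at 0 in 13 of the 18 libraries and at most 0.71. Cox8c, another testis form, was at 0 in 16 libraries and at most 0.49. The membrane ring of the ATP synthase is made of 1 mature protein encoded by Atp5g1, Atp5g2 and Atp5g3, with mean transcript levels of 687, 351 and 779 FPKM. These transcripts are 78.8% to 84.3% identical over the 250 to 267 bases that align.

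Most members moved little between libraries. The highest library exceeded the lowest by a median of 1.58-fold per member, and 5 members exceeded 5-fold, namely Ndufb4b (5.54), Cox4i2 (6.08), Cox6b2 (13.6), Cox6a2 (24.4) and Cox8b (84.2). Among those that varied least were Ndufa4, at 1.18-fold, and the complex I subunit Ndufa9, at 1.20-fold. The summed level of all members was highest in control 3 (48974 FPKM) and lowest in HS_AOS 3 (35501 FPKM). By group the sum was 43288 ± 5145 in control, 39779 ± 1220 in AOS, 45906 ± 793 in HS, 39655 ± 3976 in HS_AOS, 38486 ± 1727 in HS_AOS_FMT and 42156 ± 943 FPKM in HS_control_FMT (mean ± SD, n = 3). The members' median deviation from their means was 0.128, 0.159 and 0.189 on the log2 scale in HS 1, 2 and 3 but 0.086, -0.051 and -0.221 in HS_AOS 1, 2 and 3. Every HS library thus lay above every HS_AOS library, and the spread within HS_AOS was wider than in HS.

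**Figure D1:**
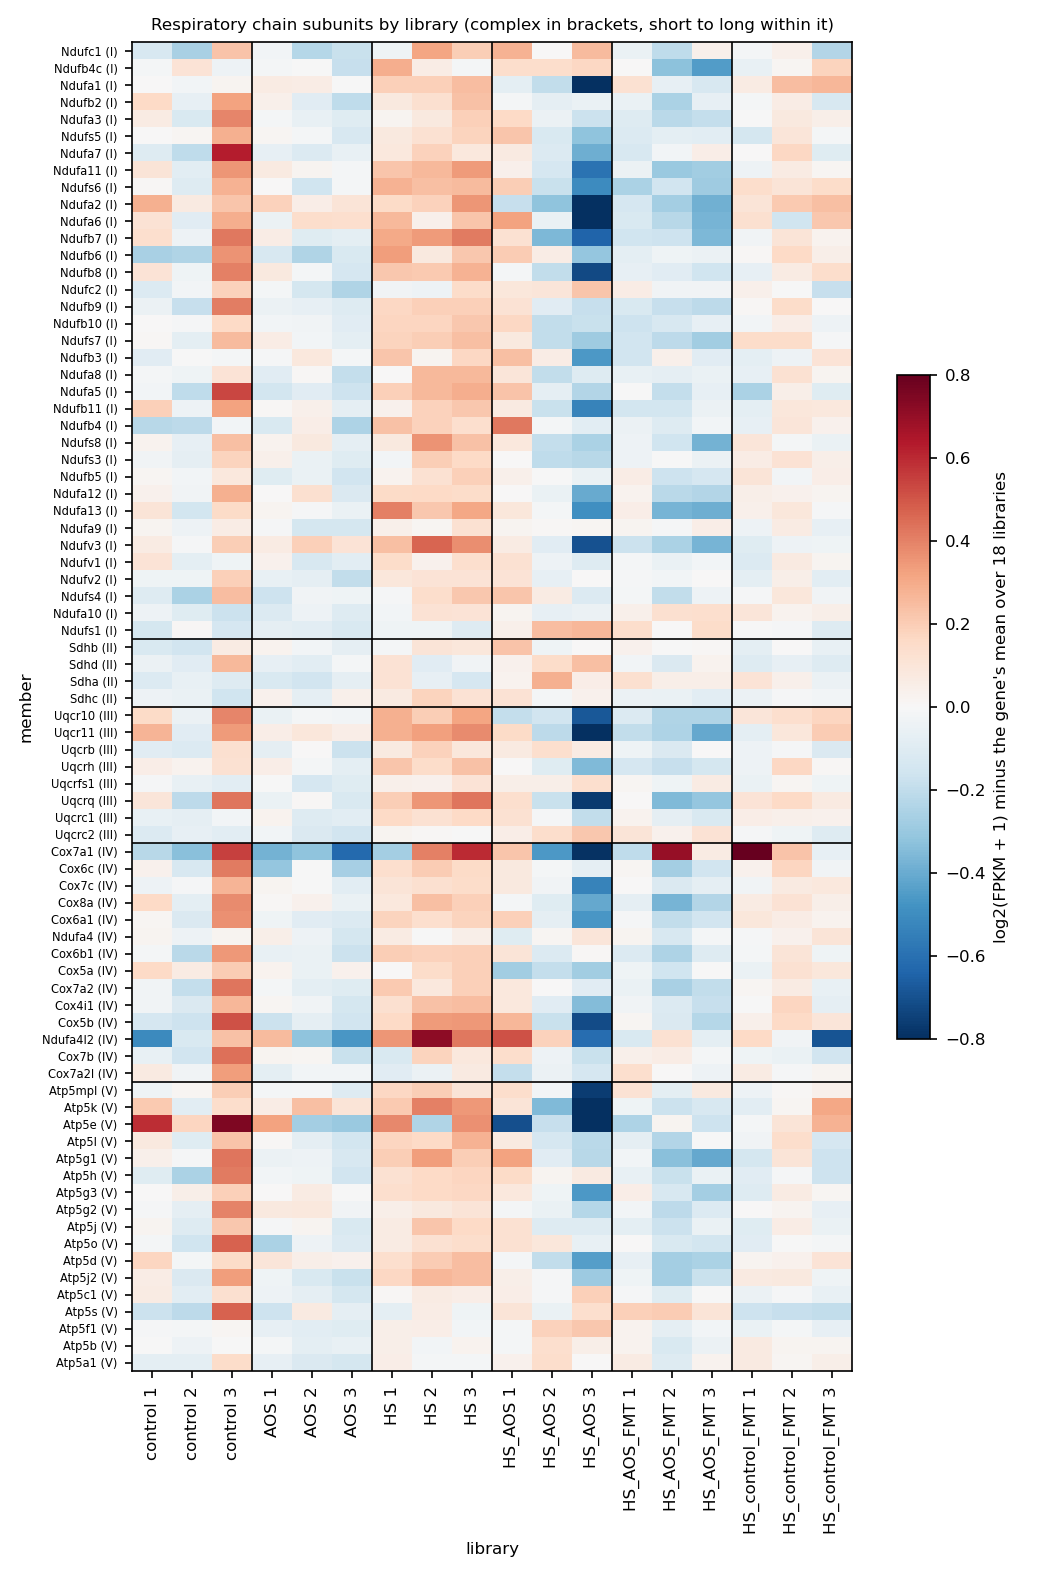
Heat map of 78 of the 79 tested members that varied by at most 5-fold, with 1 not reported here (rows, by complex and from short to long) over the 18 libraries (columns), as log2(FPKM + 1) minus the gene's mean, with colours cut at 0.8 in each direction. HS_AOS 3 is blue and control 3 red over most short members, and the long members at the bottom of complexes I and V and the whole of complex II are mostly pale.

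Against HS, HS_AOS had 6 members that passed limma's test with Benjamini-Hochberg adjustment over all 12385 tested genes at 0.05, and all 6 fell. They were Ndufa2, Ndufb7 and Ndufv3 of complex I, Uqcr10 of complex III, Cox5a of complex IV and Atp5d of complex V. Of all tested genes 2.3% were called in either direction and 1.2% called lower, beside 6 of the 84 tested members. At an unadjusted p under 0.05, 32 members were lower and 1 higher, against 9.52% and 10.8% of all genes. All 3 HS_AOS libraries lay below HS for 33 members and above it for 2, against 11.1% and 13.6% of all genes. Of 836 other genes with transcripts of at most 1000 bases, 29 were called lower and 0 higher. By the unadjusted p, 222 of these short genes were lower and 10 higher, and without overlap 234 lay below and 17 above. Fold changes are on the log2(FPKM + 1) scale, which understates changes of low genes.

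Ndufa2, an accessory subunit of complex I, was at 171, 174 and 197 FPKM in HS and at 135, 123 and 84.3 in HS_AOS. It fell by 0.68 ± 0.13 on the log2 scale (SE, adjusted p = 0.0265). Its 3 HS_AOS values all lay below HS, and HS_AOS_FMT stood at 140, 127 and 118. Ndufb7, an accessory subunit on the intermembrane side (chr8:83566758-83571623), was at 402, 413 and 434 FPKM in HS and at 354, 254 and 209 in HS_AOS. It fell by 0.65 ± 0.15 (adjusted p = 0.0413). The groups did not overlap, but HS_AOS 1 lay nearer to HS than to the other HS_AOS libraries. Ndufv3, an accessory subunit of the NADH-binding module (chr17:31520115-31531326), was at 356, 416 and 390 FPKM in HS and at 314, 282 and 185 in HS_AOS. It fell by 0.60 ± 0.14 (adjusted p = 0.0424), and HS was also its highest group, since control stood at 314, 299 and 345.

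Uqcr10, a small supernumerary subunit of complex III (chr11:4701968-4704344), was at 1078, 1017 and 1104 FPKM in HS and at 776, 797 and 554 in HS_AOS. It fell by 0.61 ± 0.13 (adjusted p = 0.0294), without overlap. Cox5a, a supernumerary subunit of complex IV (chr9:57517328-57532427), was at 618, 680 and 704 FPKM in HS and at 506, 539 and 508 in HS_AOS. It fell by 0.36 ± 0.08 (adjusted p = 0.0331), the smallest change of the 6 and with the tightest HS_AOS values. Atp5d, the delta subunit in the central stalk of the ATP synthase (chr10:80138698-80145828), was at 868, 908 and 937 FPKM in HS and at 780, 690 and 581 in HS_AOS. It fell by 0.41 ± 0.10 (adjusted p = 0.0435), again without overlap. Positions are those of RefSeq on GRCm38.

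**Figure D2:**
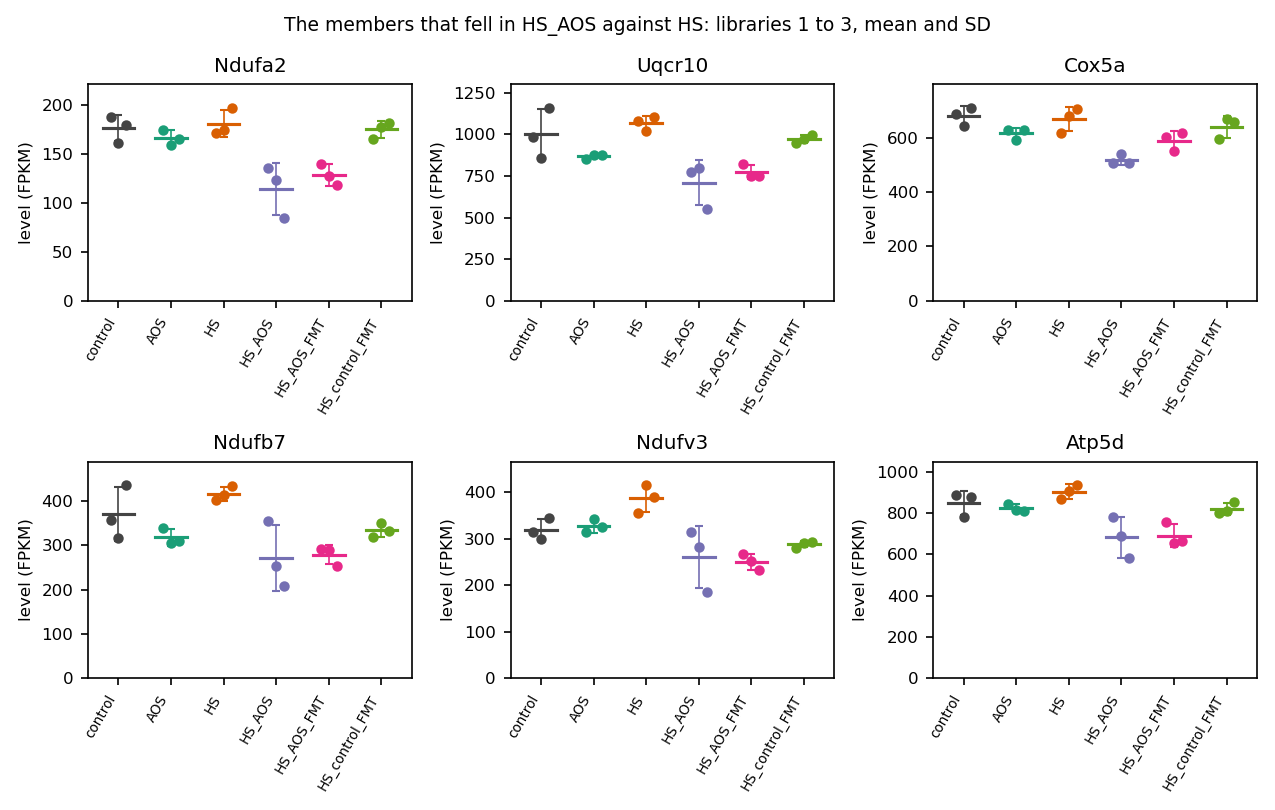
Levels in FPKM (from 0) of the 6 members that fell in HS_AOS against HS, in all 6 groups, with points for libraries 1 to 3, bars for the mean and whiskers for the SD. In every panel the HS_AOS points lie below the HS points, and HS_AOS_FMT lies below HS as well, where no member passed the test.

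The calls depended on single libraries and on the trend with length and GC content. None of the 6 passed without HS 2, without HS 3, without HS_AOS 3, without the 3 adrenal-rich libraries, without the 3 libraries with the highest fat marker sums (HS 3, HS_AOS_FMT 2 and HS_control_FMT 1) or with only the compared groups in the fit. Without HS_AOS 1, 23 members passed, 22 of them lower, beside 789 of 12341 tested genes, and without control 3, 11 passed beside 828 of 12289. Over all genes 285 had passed, and 0 did so without HS 2 or HS 3, and 17 without HS_AOS 3. Without HS_AOS 2, or without any 1 library of AOS, HS_AOS_FMT or HS_control_FMT, between 2 and 4 of the 6 still passed. When each library's smooth trend with GC content and transcript length was removed, none passed (adjusted p from 0.11 to 0.686), 2 of 12265 genes passed at all (0.0163%), and the changes of Ndufa2 and Ndufv3 were -0.43 and -0.44 but those of Cox5a, Uqcr10, Ndufb7 and Atp5d -0.19, -0.21, -0.25 and -0.08. In HS 3, adrenal markers and fat markers were high, and 13 of 13 tested adrenal and 8 of 8 tested fat markers were lower in HS_AOS, with 0 called by limma. Red cell markers moved the same way, with 5 of 6 lower (median -1.02) and summed levels of 7081 to 15541 FPKM in HS against 3247 to 4699 in HS_AOS, without overlap. So did markers of the thick ascending limb, with 10 of 10 lower (median -0.22) and sums of 1148 to 1569 against 851 to 1066 FPKM, while 13 of 18 proximal tubule markers were higher (median 0.18). Of the 14 adrenal markers, 5 were at 0 throughout HS_AOS. No fat, red cell, thick ascending limb or proximal tubule marker was at 0 throughout HS or HS_AOS. None of these lists had a marker that passed, and their part in the members' change was not tested. Ndufa2 passed in 22, Uqcr10 in 21, Cox5a in 18, Atp5d and Ndufb7 in 9 and Ndufv3 in 8 of 31 alternative settings.

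Over all tested members the median change in HS_AOS against HS was -0.21, with 67 of 84 lower. All tested genes had a median of 0.01, but the 836 other genes with transcripts of at most 1000 bases had -0.22 and the 83 cytosolic ribosomal proteins, which also have short transcripts, -0.25. The tested members are themselves short, with a median of 732 bases against 2808 for all tested genes. The 56 members of at most 1000 bases had a median change of -0.29 with 51 lower, and the 27 longer ones -0.06 with 16 lower. Across 83 members the Spearman correlation of the change was 0.46 with length and -0.48 with GC content, beside 0.36 and -0.49 over all tested genes. These are descriptions, since the genes share the same 6 libraries. After removal of the trend the members' median was -0.01, with 40 of 83 higher. By complex the medians before removal were -0.23 in I, 0.07 in II, -0.26 in III, -0.28 in IV and -0.18 in V, and after it -0.07 in I, 0.13 in II, -0.06 in III and 0.03 in V, with IV within 0.01 of 0.

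**Figure D3:**
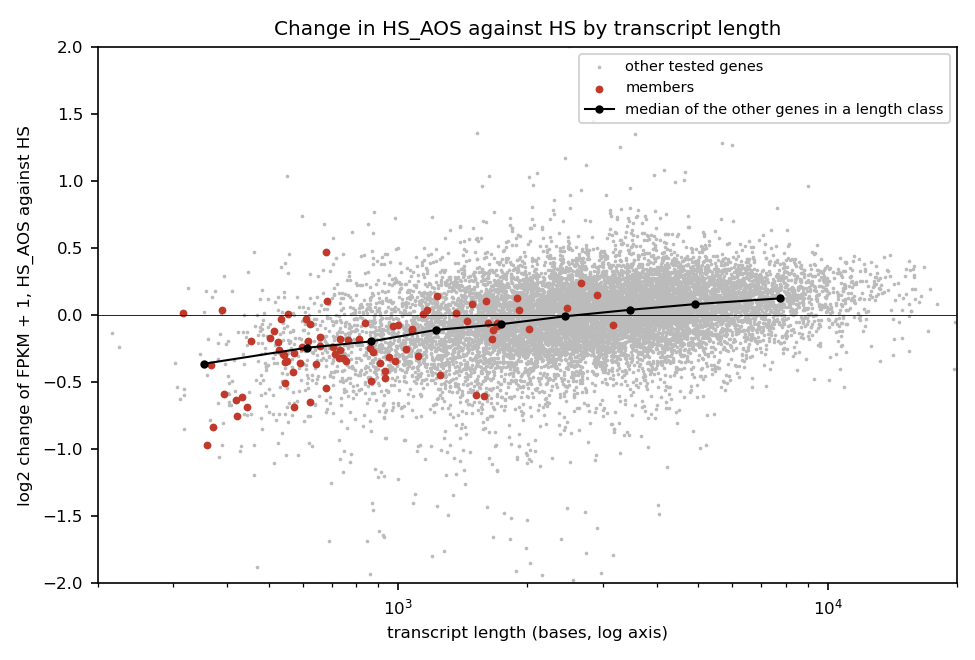
Log2 change of FPKM + 1 in HS_AOS against HS (vertical axis, shown from -2 to 2) against transcript length in bases (log axis) for other tested genes (grey), their median per length class (black) and members (red). The members follow the slope of the other genes, from a median of -0.29 at up to 1000 bases to -0.06 above.

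Complex II, whose 4 transcripts have a median length of 2066 bases, varied little between groups. Its summed level was 1157 ± 46.3 in control, 1172 ± 24.1 in AOS, 1249 ± 11.9 in HS, 1279 ± 34.5 in HS_AOS, 1202 ± 19.7 in HS_AOS_FMT and 1179 ± 20.3 FPKM in HS_control_FMT (mean ± SD, n = 3). In HS_AOS against HS, the change was 0.15 ± 0.08 (SE) for Sdha, the flavoprotein that oxidises succinate, 0.01 ± 0.08 for the iron-sulfur subunit Sdhb, and -0.08 ± 0.07 and 0.14 ± 0.09 for the membrane anchors Sdhc and Sdhd, none of which passed. Whether complex II differed from the other complexes was not tested. Sdhc had the smallest p of all members in HS against control, with 327, 325 and 301 FPKM in control and 353, 382 and 364 in HS. The groups did not overlap, and the change of 0.21 ± 0.07 did not pass (adjusted p = 0.58).

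Core subunits of complexes I, III and V and a few small subunits were described whatever their change. In HS_AOS against HS the change was 0.24 ± 0.07 for Ndufs1, the largest iron-sulfur subunit of complex I, with 128, 128 and 122 FPKM in HS and 135, 156 and 158 in HS_AOS (adjusted p = 0.0911). It was -0.11 ± 0.08 for Ndufv1, the subunit that binds NADH, and -0.34 ± 0.10 for the shorter core subunit Ndufs7 (adjusted p = 0.0816). Uqcrc1 and the Rieske protein Uqcrfs1 of complex III had -0.18 ± 0.08 and 0.01 ± 0.06. Atp5b had 0.04 ± 0.07. The small subunits Ndufa1, Cox4i1 and Cox7c had -0.63 ± 0.16, -0.32 ± 0.12 and -0.29 ± 0.13, each with HS_AOS below HS in all libraries, and none of these members passed. Member changes past 0.7 that did not pass were those of Cox8b (-0.97), Atp5k (-0.84) and Atp5e (-0.75). For Atp5k, a small membrane subunit, the HS values were 429, 491 and 473 FPKM and the HS_AOS values 399, 291 and 151, again with HS_AOS 3 lowest (adjusted p = 0.0753).

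HS_AOS_FMT and HS_control_FMT were compared with the same 3 HS libraries, so their values are given side by side and share whatever is particular to those libraries. In HS_AOS_FMT against HS, 0 members passed in limma and 37 were lower and 0 higher at an unadjusted p under 0.05 (0.977% of all tested genes passed, and 8.63% were lower and 9.46% higher by the unadjusted p). The median change was -0.24 with 76 of 84 lower, beside -0.23 in other short genes and -0.30 in ribosomal proteins, and it was -0.07 with the trend removed. All 3 HS_AOS_FMT libraries lay below HS for 56 of 84 members, against 13.7% of all genes, and above it for 3, against 15.8%. Of 836 other short genes, 315 lay below and 25 above, and 228 were lower by the unadjusted p. Of 83 ribosomal proteins, 67 lay below and 0 above, and 26 were lower by the unadjusted p. Ndufv3, at 267, 252 and 232 FPKM in HS_AOS_FMT, came nearest to passing with a change of -0.63 ± 0.14 (adjusted p = 0.0506), and Ndufs7 followed with -0.42 ± 0.10 (adjusted p = 0.0559). Ndufv3 stayed at -0.49 with the trend removed (adjusted p = 0.113) and Ndufs7 at -0.10. The count moved with single libraries, and so did that over all genes, which was 121. Without control 3, 18 members and 619 genes in all passed, without HS_AOS 3, 11 and 282, without HS_AOS 1, 8 and 244, and without HS_AOS_FMT 1, 2 and 69. Red cell markers were lower for 5 of 6 (median -1.38), with sums of 3279 to 4100 FPKM against 7081 to 15541 in HS, and proximal tubule markers higher for 15 of 18 (median 0.16), none of them called. Markers of endothelium (8 of 8, -0.24), distal tubule (9 of 9, -0.35) and leukocytes (8 of 9, -0.385) were lower too. Fat markers were higher for 7 of 8 (0.63), and 0 of these were called. Their part was not tested. The largest lower and higher changes were those of Cox4i2 (-0.67) and Cox8b (1.35), which did not pass.

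In HS_control_FMT against HS, 0 members passed in limma and 5 were lower and 0 higher at an unadjusted p under 0.05 (0.751% of all tested genes passed, and 10.8% were lower and 4.36% higher by the unadjusted p). The median change was -0.13 with 73 of 84 lower, but the median of all genes was -0.08 and that of other short genes -0.15. With the trend removed the members' median was -0.07 and that of all genes -0.08. All 3 HS_control_FMT libraries lay below HS for 39 of 84 members, against 18.8% of all genes, and above it for 0, against 6.53%. Of 836 other short genes, 192 lay below and 19 above, and of 83 ribosomal proteins 23 and 0. Without HS_AOS 3, which enters the shared spread, 1 member passed. The full fit called 0.751% of all genes, and the all-gene count without HS_AOS 3 was not set beside it. Markers of red cells (6 of 6, median -0.84), endothelium (8 of 8, -0.46) and the collecting duct (11 of 12, -0.29) were lower too. So were those of fibroblasts and smooth muscle (9 of 9, -0.45), adrenal (13 of 13, -1.79), distal tubule (8 of 9, -0.46) and leukocytes (8 of 9, -0.41). Fat markers were higher (8 of 8, 0.99). In all these lists 0 were called, and their part was not tested. Ndufv3 was at 281, 292 and 294 FPKM, a change of -0.42 ± 0.14 (adjusted p = 0.186), and so was below HS in all 3 comparisons with that group. The largest lower and higher changes were Ndufa4l2 (-0.69) and Cox8b (1.56), and neither passed.

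Between the transplant groups, which share no libraries, HS_AOS_FMT against HS_control_FMT had 0 members called in limma, with 8 lower and 1 higher at an unadjusted p under 0.05 (3.99% of all tested genes passed, and 4.78% were lower and 15% higher by the unadjusted p). The members' median was -0.11, against 0.07 for all genes and -0.09 for other short genes, and turned to 0.01 with the trend removed. Ndufa2 had the smallest p, with 165, 177 and 181 FPKM in HS_control_FMT and 140, 127 and 118 in HS_AOS_FMT, a change of -0.45 ± 0.13 (adjusted p = 0.0753). The groups did not overlap, and with the trend removed the change was -0.30 (adjusted p = 0.14). All 3 HS_AOS_FMT libraries lay below HS_control_FMT for 22 members and above it for 4, against 7.56% and 21.8% of all genes. Of 836 other short genes, 137 lay below and 54 above. Without control 3, which belongs to neither group but enters the shared spread, 2 members passed, and without HS_AOS 1 or HS_AOS 3, 1. The full fit called 3.99% of all genes, and the all-gene counts of these fits were not set beside them. These counts are therefore not read as particular to the members. Atp5s had the largest higher change at 0.35 ± 0.14 and Cox4i2 the largest lower one at -0.53 ± 0.26.

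**Figure D4:**
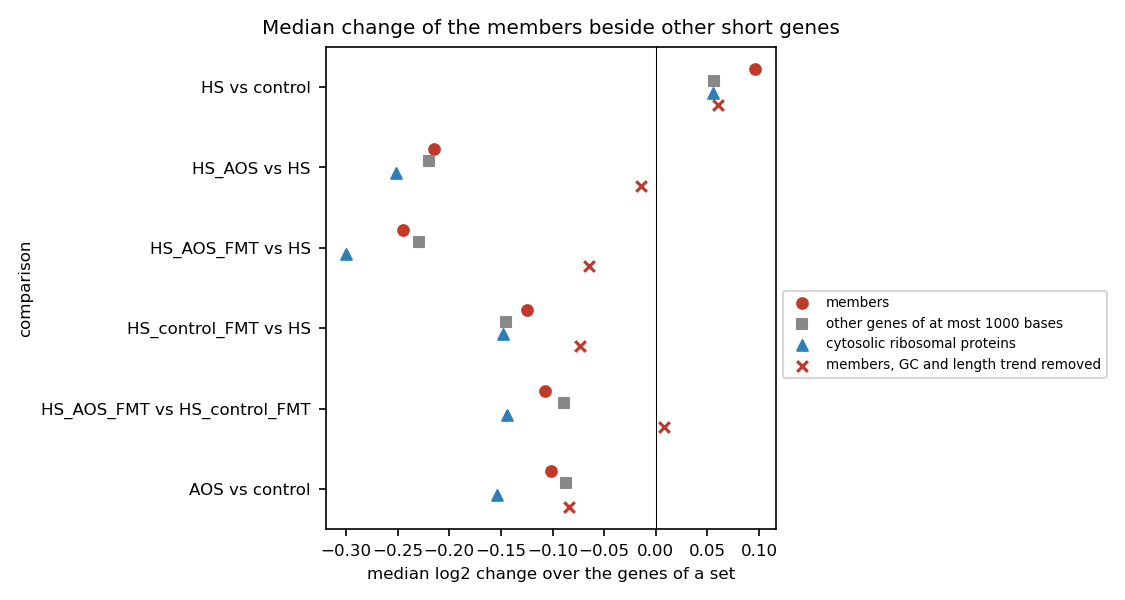
Median log2 change (horizontal axis) over the tested members, over 836 other genes of at most 1000 bases and over 83 cytosolic ribosomal proteins in the 6 comparisons (rows), with the members' median after removal of the GC and length trend as crosses. The members lie near the other short genes in each row, and the crosses lie between -0.08 and 0.06.

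HS against control gave 0 members past limma's threshold. By the unadjusted p, 5 were higher and 0 lower, and 0.0646% of all tested genes passed the adjusted threshold, with 3.33% higher and 3.29% lower unadjusted. The median change was 0.10 with 74 of 84 higher, beside 0.06 in other short genes and 0.00 over all genes, and 0.06 with the trend removed. It was 0.03 without control 2 and 0.19 without control 3. Red cell markers were higher for 6 of 6 (median 0.84) and thick ascending limb markers lower for 9 of 10 (median -0.43), none of them called, and their part was not tested. All HS libraries lay above control for 14 members and below it for 1, against 4.59% and 3.95% of all genes. Of 836 other short genes, 60 lay above and 17 below. Among those 14 members was Uqcrc1 with 407, 404 and 419 FPKM in control and 474, 463 and 475 in HS (0.20 ± 0.08, adjusted p = 0.691). Ndufb4, with 752, 758 and 863 FPKM in control and 1033, 995 and 965 in HS, had a change of 0.34 ± 0.12 (adjusted p = 0.623). The largest higher and lower changes were those of Cox8b (1.09) and Ndufb4b (-0.47).

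In AOS against control, 0 members passed in limma, with 4 lower and 0 higher at an unadjusted p under 0.05 (0.0646% of all tested genes passed, and 6% were lower and 1.28% higher by the unadjusted p). The median change was -0.10 with 76 of 84 lower, beside -0.09 over all genes and -0.09 in other short genes. All AOS libraries lay below control for 6 members and above it for 0, against 10.1% and 2.98% of all genes. It was -0.08 with the trend removed and -0.03 without control 3. By complex, 32 of 37 tested members of I, 2 of 4 of II, 8 of 8 of III, 18 of 18 of IV and 16 of 17 of V were lower, beside 9085 of 12385 genes. Complex IV had a median of -0.16, and its median deviation was 0.356 in control 3 but -0.034 and -0.125 in controls 1 and 2, beside AOS values of -0.047, -0.063 and -0.161. Markers of the collecting duct (12 of 12, median -0.35), distal tubule (9 of 9, -0.32), thick ascending limb (9 of 10, -0.40) and podocytes (6 of 6, -0.29) were lower as well, and 16 of 18 proximal tubule markers were higher (0.21). Adrenal markers, which summed to 997 FPKM in control 3, had the largest of these shifts (13 of 13 lower, -1.41). Fat (8 of 8, -0.35), fibroblast and smooth muscle (8 of 9, -0.35) and leukocyte markers (7 of 9, -0.26) were lower too. None of these markers was called, and their part was not tested. The largest higher and lower changes were those of Sdhc (0.08) and Cox6b2 (-0.97), and Cox6b2 was at 28.6 FPKM in control 3 against 4.20 and 5.12 in the other control libraries. The difference between the AOS change under HS and that without HS was tested as an interaction. It passed for 0 members in limma, with 7 members lower and 1 higher before adjustment at 0.05 (0.0727% of all tested genes passed, and 10.9% were higher and 4.05% lower by the unadjusted p). Its median was -0.11 over members, 0.10 over all genes and -0.12 over other short genes, and with the trend removed 0.07, 0.09 and 0.07. Ndufa2 had the smallest p, with a difference of -0.61 ± 0.19 (adjusted p = 0.214).

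Cox8b, the heart and muscle form of subunit 8 that brown fat also makes, had the widest range of all members. Control held 13.4, 18.3 and 4.95 FPKM, AOS 4.49, 16.3 and 11.5, and HS 22.6, 3.29 and 156. HS_AOS held 22.4, 21.7 and 3.00, HS_AOS_FMT 16.4, 158 and 93.5, and HS_control_FMT 253, 36.7 and 41.6. The 4 highest values came from 1 library of HS, 2 of HS_AOS_FMT and 1 of HS_control_FMT, and Cox8b passed in no comparison. Ucp1 and Cidea, which mark brown fat, were at 133 and 65.9 FPKM in HS_control_FMT 1, 129 and 45.5 in HS_AOS_FMT 2, 67.2 and 29.1 in HS_AOS_FMT 3 and 42.5 and 43.5 in HS 3, the same 4 libraries that held the most Cox8b. HS 3, HS_AOS_FMT 2 and HS_control_FMT 1 had the highest summed level of 10 fat markers. That sum ranged from 32.9 to 272 FPKM in control, 26.4 to 319 in AOS, 6.42 to 678 in HS, 17.9 to 60.6 in HS_AOS, 47.9 to 394 in HS_AOS_FMT and 102 to 598 in HS_control_FMT, and no marker was at 0 throughout a group. The part of fat in the Cox8b level was not tested. The 15 markers of skeletal and heart muscle summed to between 1.51 and 4.39 FPKM in any library, with Ckm at most 0.18 and Myh4 at most 0.01.

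**Figure D5:**
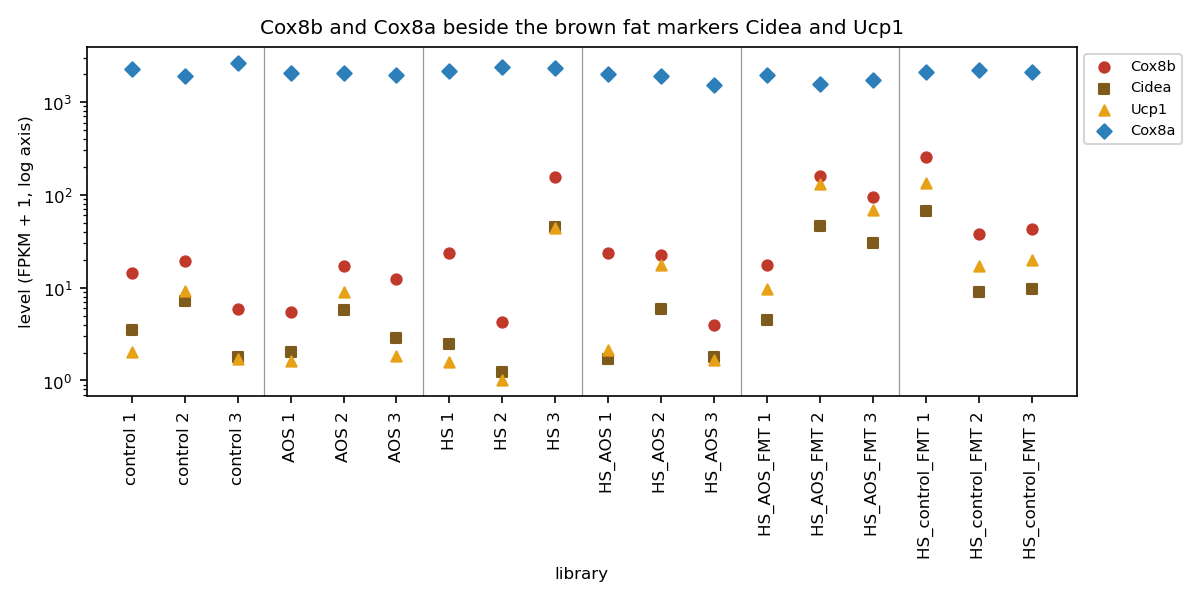
Level of Cox8b, Cox8a and the brown fat markers Cidea and Ucp1 in each library, as FPKM + 1 on a log axis. Cox8a lies between 1521 and 2631 FPKM throughout, while Cox8b, Cidea and Ucp1 are high in HS 3, HS_AOS_FMT 2, HS_AOS_FMT 3 and HS_control_FMT 1.

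Cox7a1, the heart and muscle form that brown fat also makes, was highest in HS_control_FMT 1 (128 FPKM), HS_AOS_FMT 2 (111) and HS 3 (103). Control 3 (99.4) and HS 2 (90.1) followed, although HS 2 had the lowest fat marker sum (6.42 FPKM). AOS 3, with a fat marker sum of 319 FPKM, held 43.8 FPKM of Cox7a1. The part of fat in the Cox7a1 level was not tested. Cox6b2 was highest in control 3 (28.6 FPKM) and between 2.10 and 13.2 elsewhere. The 14 testis and germ cell markers summed to 58.8, 61.1 and 64.5 FPKM in control against 15.1 to 40.4 in the other groups, where 7 to 9 of them were at 0 throughout a group. Of the 6 that passed the filter, Prm1, Prm2, Tnp1, Tnp2 and Ldhc were called lower in HS and in AOS against control. In each of these comparisons 0.0646% of all tested genes were called. These markers passed the filter only through the control libraries, so a fall against control was fixed beforehand and is no test. The part of germ cell RNA in the Cox6b2 level was not tested.

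Other lists of mitochondrial genes were read beside the members in HS_AOS against HS. Of 48 tested assembly factors, Cox15, which makes the heme of complex IV, rose by 0.36 ± 0.08 (adjusted p = 0.0303), and the median of the list was 0.00. Pet100 and Cox10, named after their values were seen, fell by 0.98 ± 0.21 and 0.36 ± 0.08 (adjusted p = 0.0331 and 0.0393). Of 20 regulators of mitochondrial and fatty acid metabolism, Ppara, a receptor that turns on fat oxidation genes, rose by 0.80 ± 0.14 (adjusted p = 0.0168), from 11.8 ± 1.63 to 21.5 ± 4.02 FPKM (SD, n = 3). Esrrg, named after its value was seen, rose by 0.56 ± 0.11 (adjusted p = 0.0279). The citric acid cycle list had 1 call in 14, Suclg2, which rose by 0.32 ± 0.08 (adjusted p = 0.0471), and a median of 0.08. The 6 subunits and carriers outside the symbol rule had a median of -0.11 and 0 calls, also at an unadjusted p under 0.05. None of these genes passed with the trend removed.

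The mitochondrial ribosomal proteins, which translate the mitochondrially encoded subunits, were tested as another list. In HS_AOS against HS, 5 of 77 fell and 0 rose, beside 1.2% of all genes called lower, with a median of -0.16, and Mrpl54 led with a fall of 0.79 ± 0.10 (adjusted p = 0.0145), from 143 ± 14.2 to 82.3 ± 7.07 FPKM (SD, n = 3). The other 4 were Mrps7, Mrpl28, Mrps26 and Mrpl52, named after their values were seen, and none of the 5 passed with the trend removed. The 83 cytosolic ribosomal proteins had 0 calls in limma, with 28 lower and 0 higher by the unadjusted p, beside 222 lower of the 836 other short genes and 9.52% of all genes. Ppara also rose against the same HS libraries in HS_AOS_FMT (0.68 ± 0.14, adjusted p = 0.041) and in HS_control_FMT (0.76 ± 0.14, adjusted p = 0.0263), and in the latter it passed with the trend removed as well (0.77, adjusted p = 0.0222). Mrps26 fell by 0.36 ± 0.08 in HS_control_FMT against HS (adjusted p = 0.0491, and 0.0428 with the trend removed), and Mrps12 fell by 0.52 ± 0.12 in HS_AOS_FMT against HS_control_FMT (adjusted p = 0.0325, and 0.0397 with the trend removed).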

How the data were processed

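The authors deposited FPKM, a value for each gene in each sample, and no read counts entered. No label names the unit, which was inferred: multiplied by transcript length, the values add up to totals that vary by 0.91% between samples (coefficient of variation), and by 4.29% without that step. The submitters' processing notes name Bowtie 0.12.2 and mm10. Not given in the sources used here are the counting program, the annotation and the strandedness.

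Values were taken as log2(FPKM + 1). The 6 group means were estimated jointly with limma 3.58.1 in R 4.3.3 (trend and robust options, 12 residual degrees of freedom). Of the genes, 12385 reached 1 FPKM in 3 or more samples and were tested, and p-values were adjusted over them by Benjamini and Hochberg, with a threshold of 0.05. A test on counts could not be run. Transcript length and GC content came from 1 GENCODE M21 transcript per gene, found for 99.0% of tested genes, and each library's trend with both was removed as an alternative, using 1 natural spline for each (4 degrees of freedom). The script was tested on simulated data.

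Named were members that passed, a list of core subunits and isoform sets, the highest and lowest member of each complex, the largest change each way per comparison, and the smallest p of each other list. Further names are marked, or are members with the smallest p or steadiest level named after their values were seen. The members and lists were chosen with earlier results of these data known. The labels name no pairs. Same-numbered control and HS samples had correlated deviations (0.126 to 0.253), and differently numbered ones of these groups had -0.14 to -0.038. Between other groups, differently numbered libraries reached 0.46 (HS 3 with HS_AOS_FMT 2). With no label for it, pairing was not established, and the p-values given are from fits without pairs. A fit with the replicate block also called 0 members in HS against control. In the other group comparisons the lowest correlation of same-numbered samples was negative. Some results are not reported here.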

Additional observations from a re-analysis of the deposited data

How the results depend on the processing

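Without 1 library at a time, the members called ranged from 0 to 23 in HS_AOS vs HS, 0 to 18 in HS_AOS_FMT vs HS, 0 to 1 in HS_control_FMT vs HS and 0 to 2 in HS_AOS_FMT vs HS_control_FMT, and stayed at 0 elsewhere. The members' median ranged from -0.32 to -0.12 in HS_AOS vs HS, 0.03 to 0.19 in HS vs control, -0.16 to -0.03 in AOS vs control and -0.21 to -0.0064 in the interaction, and moved by less in the other comparisons. In HS_AOS vs HS, where 6 were called, 3 were called without a filter or without limma's trend and robust options, 10 with at least 5 FPKM in 3 samples, 33 with array weights, and 0 with only the compared groups, without the 3 adrenal-rich libraries, without the 3 with the most fat marker RNA (an alternative chosen after seeing the data), or with the GC and length trend removed, alone or with the replicate block or without the adrenal-rich libraries. The replicate block, a paired fit on numbers that did not pair HS_AOS with HS, called 1. Array weights called 36 in HS_AOS_FMT vs HS, 3 in HS_control_FMT vs HS, 8 in HS_AOS_FMT vs HS_control_FMT and 10 in the interaction, and gave medians of 0.20 in HS vs control and -0.21 in the interaction. The member counts here stand without those over all genes, which moved with the settings in every comparison. In HS_AOS vs HS the all-gene count moved in 12 fits without 1 library and stayed in 6. Among the other settings it moved in 11 and stayed in 2. The member counts are therefore not read as particular to the members. In HS_AOS_FMT vs HS, 2 were called with at least 5 FPKM and 6 with only the compared groups, and in HS_AOS_FMT vs HS_control_FMT the latter called 1. Quantile normalization gave a median of -0.12 in HS_AOS_FMT vs HS. Trend removal, with or without the replicate block, gave -0.0147 in HS_AOS vs HS, -0.0651 in HS_AOS_FMT vs HS, 0.0076 in HS_AOS_FMT vs HS_control_FMT and 0.068 in the interaction, and without the adrenal-rich libraries -0.0111, -0.0754, 0.0129 and -0.0079. The cause was not tested. The pooled SD of the member median between libraries of a group was 0.097, close to the medians in HS vs control, AOS vs control, HS_control_FMT vs HS and HS_AOS_FMT vs HS_control_FMT, and below those in HS_AOS vs HS and HS_AOS_FMT vs HS. It describes single libraries and is not the error of a difference between means of 3. The library medians ran from -0.079 to 0.232 in control and -0.221 to 0.086 in HS_AOS, but from 0.128 to 0.189 in HS and -0.009 to 0.063 in HS_control_FMT.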
